A study of Mus musculus with 24 samples.

Results

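The nuclear genes of the respiratory chain were followed in the brain and liver of mice that lacked single phenylalanine tRNA genes. Members were the protein-coding entries whose symbol began with Ndufa, Ndufb, Ndufc, Ndufs or Ndufv and a digit, with Uqcr, Cox4i, Cox5, Cox6, Cox7, Cox8 or Atp5, or was Sdha, Sdhb, Sdhc or Sdhd, which gave 89 of the 55469 genes in each deposited table. These comprised 39 entries of complex I, 4 of complex II, 8 of complex III, 19 of complex IV and 19 of complex V, and carried 88 different symbols because Atp5po was listed under a second identifier that had no reads in any library.

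RNA was sequenced from 24 samples, 3 (A, B and C) for each of 4 genotypes in each of 2 tissues. The genotypes were wild-type (WT) mice and mice that had lost both copies of 1 gene for the tRNA that carries phenylalanine to the ribosome. These lines are called tRNA-Phe-1-1-/-, then tRNA-Phe-2-1-/-, then tRNA-Phe-3-1-/- after the gene that was removed. The labels describe male mice on a C57BL/6N background and a normal chow diet, with WT and mutants matched for age and litter, and the study's methods add that matched animals came from different litters. An age of 10 weeks is stated for the mice in general, not for the sequenced animals in particular. The deletions were made with CRISPR-Cas9 in embryos and bred through the germline, so direct effects in a tissue and effects from elsewhere in the body cannot be told apart, and the same 3 WT libraries of a tissue served as controls for all 3 lines.

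The respiratory chain sits in the inner mitochondrial membrane, where complexes I and II pass electrons from NADH and succinate to ubiquinone, complex III hands them to cytochrome c, and complex IV reduces oxygen. Complexes I, III and IV pump protons, and complex V, the ATP synthase, uses the resulting gradient to make ATP. Most subunits are encoded in the nucleus and imported, while a small set of subunits of complexes I, III, IV and V is encoded by mitochondrial DNA, so that transcripts from both genomes are needed for assembly. Brain and liver are both rich in mitochondria.

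Depth, taken as the summed counts assigned to genes and recovered from the deposited values, was 30365760 to 46225360 per brain sample and 32276896 to 51584522 per liver sample. A few measured features of the libraries move with the groups. In the liver, Dbp, a clock-controlled transcription factor, had 853 to 3069 normalised counts in the tRNA-Phe-1-1-/- samples, 28.7 to 67.5 in WT, 36.9 to 383 in tRNA-Phe-2-1-/- and 170 to 2173 in tRNA-Phe-3-1-/-. Bmal1, a core clock gene whose transcript runs in the opposite phase to Dbp, had 98.8 to 466 normalised counts in liver tRNA-Phe-1-1-/-, 1479 to 1889 in WT, 764 to 1283 in tRNA-Phe-2-1-/- and 290 to 1233 in tRNA-Phe-3-1-/-. The hour of tissue collection is not given in the sources used here, so genotype and clock phase cannot be told apart where tRNA-Phe-1-1-/- liver is compared with WT or with tRNA-Phe-2-1-/-, from which both genes were separate in every sample. The summed level of 5 heart muscle markers was 100.5 to 664 in WT brain against 71.7 to 141 in the knockout brains and 20.5 to 112 in WT liver against 7.88 to 35.2 in the knockout livers, where 2 of the 5 passed the filter on low values. The 5 neuronal markers summed to 119061 to 148083 normalised counts in WT brain and 110553 to 137207 in tRNA-Phe-1-1-/- brain. They summed to 116570 to 132085 in tRNA-Phe-2-1-/- brain and 73863 to 131978 in tRNA-Phe-3-1-/- brain. In the liver they summed to 51.1 to 104 in tRNA-Phe-1-1-/- and to 185 to 456 in the other genotypes. The 5 hepatocyte markers summed to 1841750 to 2348530 normalised counts in tRNA-Phe-1-1-/- liver, below WT (2379430 to 3004400) and tRNA-Phe-3-1-/- (2601570 to 3077980) without overlap, and to 1998600 to 2213420 in tRNA-Phe-2-1-/-. None of the 5 passed the test in tRNA-Phe-1-1-/- against WT, and the part of these markers in the lower member values was not tested. In bulk tissue, fewer cells of a type and less RNA per cell cannot be told apart, and the deleted tRNA genes themselves were not analysed here.

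A window of 250 bases before the transcription start was taken from RefSeq (GRCm38.p6) for 68 of the 89 members, a coverage of 76.4% that is below 80%, so the shares below describe these 68 genes and not the whole set. The palindrome made of GCGCA and its reverse complement, the core of the recognition sequence of the transcription factor NRF1, was present in 4 of the 68 (5.88%) and in 0.877% of all 27025 genes with a window. The ETS motif CCGGAAG, searched on both strands like the others, was present in 17.6% of the members and 7.83% of all genes. The ERR motif TCAAGGTCA was present in 1 of the 68 members (1.47%) and 0.422% of all genes, and the GC box GGGCGG in 35.3% and 35.4%. All genes here means all with a window, whether or not they passed the filter on low values. The stretches that hold the NRF1 palindrome are shown because one of them precedes Atp5me, the member with the lowest adjusted p in both liver comparisons of the tRNA-Phe-1-1-/- line with another line. In that line against WT liver, Atp5me was called, whereas Cox6a1, Atp5mc2 and Ndufa11 were not. The other members called there had no match, and a link between motif and level was not tested. Capitals mark the matched bases, read in the direction of the gene from 5′ to 3′.
Atp5me (chr5:108434400-108434499, minus strand, match starting 50 bases before the start): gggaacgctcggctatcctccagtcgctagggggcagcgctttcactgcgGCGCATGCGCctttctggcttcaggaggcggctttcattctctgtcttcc
Cox6a1 (chr5:115349066-115349165, minus strand, 162 bases before the start): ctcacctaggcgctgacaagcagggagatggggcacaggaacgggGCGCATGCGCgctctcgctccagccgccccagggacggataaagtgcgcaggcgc
Atp5mc2 (chr15:102671048-102671147, minus strand, 42 bases before the start): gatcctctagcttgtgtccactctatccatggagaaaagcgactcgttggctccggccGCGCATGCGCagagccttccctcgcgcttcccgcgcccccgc
Ndufa11 (chr17:56717657-56717756, plus strand, 60 bases before the start): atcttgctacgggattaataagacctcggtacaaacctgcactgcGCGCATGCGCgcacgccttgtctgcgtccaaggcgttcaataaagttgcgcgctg

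Before the genotypes were compared, the levels in WT were examined, because several subunits exist as isoforms with distinct tissue distributions. Normalised counts are reads per gene after each library was scaled by its size factor, and levels between genes are given per kilobase of the canonical transcript. Cox4i1, the common form of the largest nuclear subunit of complex IV, stood at 12946 per kilobase in WT brain and 12265 in WT liver, whereas Cox4i2, the form found mainly in lung, stood at 41.7 and 1.00. Cox6a1 stood at 8412 per kilobase in WT brain against 136 for its heart and muscle form Cox6a2, and at 8019 against 2.73 in WT liver. The common form of both pairs was the higher one in each tissue, and the minor forms were near the floor in the liver.

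Cox6b1 had 6438 counts per kilobase in WT brain and 7630 in WT liver, whereas its testis form Cox6b2 had 33.2 and 6.15. Cox7a2 had 3813 per kilobase in WT brain and 4667 in WT liver, and the muscle form Cox7a1 had 83.1 and 114. Ndufa4, a complex IV subunit that was counted here with complex I by its symbol, had 9461 and 12708 per kilobase, against 43.1 and 21.3 for its paralogue Ndufa4l2. The 3 genes that encode the same mature c-subunit of the ATP synthase rotor were all well expressed, with Atp5mc1 at 6876 per kilobase in WT brain and 10710 in WT liver, Atp5mc3 at 3057 and 5858, and Atp5mc2 at 2423 and 3971. Atp5if1, the inhibitor of ATP hydrolysis by the synthase, had 4648 per kilobase in WT brain and 464 in WT liver. The 2 tissues were normalised separately, so these values describe each tissue and were not tested against each other.

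**Figure D1:**
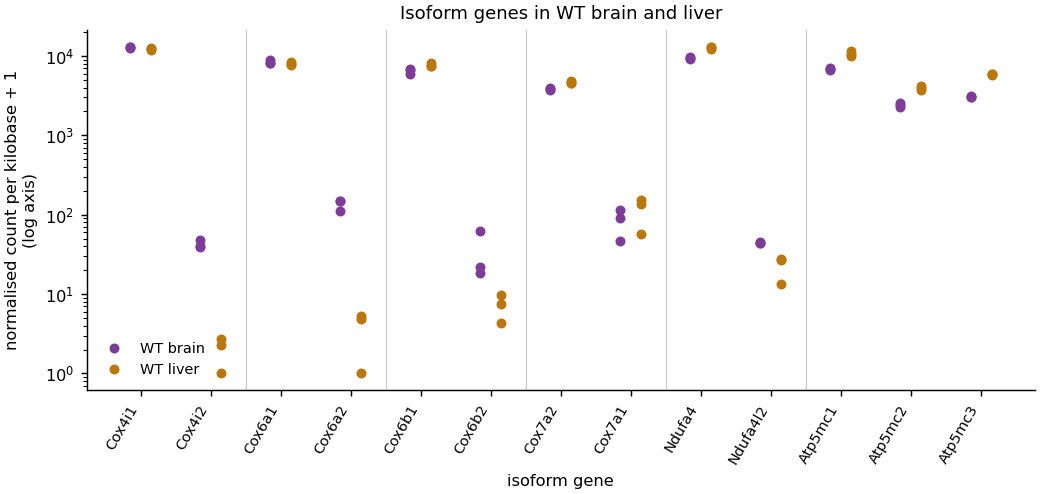
Levels of isoform genes in the 3 WT brain and 3 WT liver samples (points) as normalised counts per kilobase plus 1, on a log axis, with vertical lines between families. The common form of each complex IV subunit lies well above the minor form, as Cox4i1 does over Cox4i2, and the 3 c-subunit genes lie close together.

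A mean of at least 10 normalised counts over the 12 samples of a tissue was required for testing. This was met by 84 members in the brain and 81 in the liver. Ndufb11b, Cox7b2, Cox8b, Cox8c and the second Atp5po entry were below it in both tissues, and Cox4i2, Cox6a2 and Cox6b2 in the liver. Cox8c had no reads at all and Cox8b averaged 7.6 normalised counts in the brain and 0.334 in the liver. Cox5b-ps and Cox5b, like Ndufb11b and Ndufb11, are near copies of each other, so that their separate values are uncertain.

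To ask whether the loss of a tRNA-Phe gene altered these transcripts in the brain, each line was compared with WT. No member passed an adjusted p of 0.05 (limma, Benjamini-Hochberg over the 19228 genes tested) in any line, against 1.05% of all genes for tRNA-Phe-1-1-/-, 0% for tRNA-Phe-2-1-/- and 0% for tRNA-Phe-3-1-/-. At an unadjusted p under 0.05 there were 2, 1 and 4 members respectively, set beside 15.9%, 5.57% and 12.3% of all genes, and neither edgeR nor DESeq2 on reads recovered from the normalised counts called a member in these comparisons. Median log2 fold changes were -0.02, -0.03 and -1.71e-05, beside medians over all genes of -0.00059, -0.0016 and 0.0018.

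Ndufb9, an accessory subunit of complex I, had the lowest unadjusted p in tRNA-Phe-1-1-/- brain, with 3196, 3367 and 3427 normalised counts against 4010, 4051 and 3769 in WT. The 3 knockout samples lay below the 3 WT samples, and the log2 difference was -0.24 (SE 0.078, adjusted p = 0.161, limma). Cox6c, a small subunit of complex IV, had 3778, 4236 and 3934 normalised counts against 4515, 4680 and 4482 in WT (log2 difference -0.20, SE 0.065, adjusted p = 0.171, limma). In all, 10 of the 84 tested members lay below WT in that line without overlap between the groups, close to the 12.4% of all genes that did so. The summed level of the 5 oligodendrocyte markers was 33577 to 61958 normalised counts in these samples and 87618 to 103233 in WT, and its part in the values of Ndufb9 and Cox6c was not tested.

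In tRNA-Phe-2-1-/- brain, Atp5pf, a stalk subunit of the ATP synthase, had 1906, 1900 and 1723 normalised counts against 2044, 1996 and 2089 in WT (log2 difference -0.15, SE 0.063, adjusted p = 0.894, limma). Atp5f1d, a subunit of the central stalk, had 2967, 2654 and 2768 against 3084, 3174 and 3000 (log2 difference -0.14, SE 0.070, adjusted p = 0.906, limma). Both groups were separate for each gene but by small margins. In tRNA-Phe-3-1-/- brain, Cox8a, the common form of the smallest complex IV subunit, had 8172, 8142 and 6909 normalised counts against 9330, 9145 and 9148 (log2 difference -0.25, SE 0.078, adjusted p = 0.243, limma). Atp5mc2 had 2112, 1926 and 2015 normalised counts against 1887, 1766 and 1661 in WT, which was higher in each sample (log2 difference 0.19, SE 0.073, adjusted p = 0.330, limma).

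No member passed in tRNA-Phe-1-1-/- against tRNA-Phe-2-1-/- (0.53% of all genes did), in tRNA-Phe-1-1-/- against tRNA-Phe-3-1-/- (2.11%) or in tRNA-Phe-2-1-/- against tRNA-Phe-3-1-/- (0%) by limma. At an unadjusted p under 0.05 there were 4, 5 and 3 members, beside 13.7%, 19.5% and 9.93% of all genes. edgeR called none, and DESeq2 called 1 member, in the second of these comparisons. The shares of all genes above are those of limma, and that of DESeq2 was not set beside its count. The F-test over the 4 genotypes called no member in the brain, where 0.634% of all genes passed, and 4 members had an unadjusted p under 0.05. The share of all genes at that unadjusted threshold was not set beside this count.

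**Figure D2:**
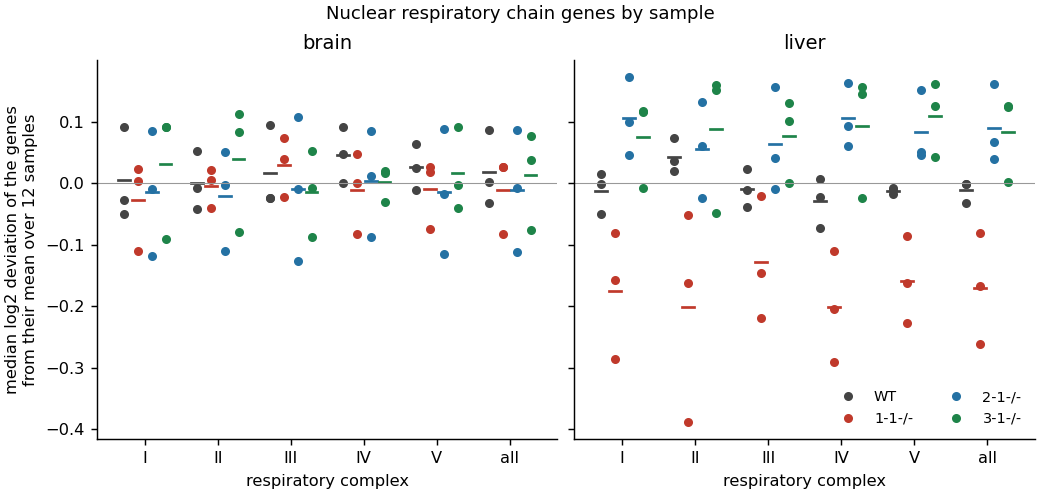
Median log2 deviation of the tested genes of each complex, and of all members, from their own mean over the 12 samples of the tissue. Points are samples, short bars are group means, and colours are genotypes. In the liver the tRNA-Phe-1-1-/- samples lie between -0.262 and -0.082 for all members, below every other liver sample, while in the brain the genotypes overlap.

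In the liver the tRNA-Phe-1-1-/- line stood below the other genotypes. The median deviation of the 81 tested members was -0.168, -0.262 and -0.082 on the log2 scale in its 3 samples, -0.001, -0.002 and -0.032 in WT, 0.039, 0.160 and 0.067 in tRNA-Phe-2-1-/-, and 0.002, 0.124 and 0.125 in tRNA-Phe-3-1-/-. Summed over members, normalised counts made up 0.786% ± 0.040 (SD, n = 3) of a tRNA-Phe-1-1-/- liver library, 0.864% ± 0.008 of a WT library, 0.920% ± 0.029 in tRNA-Phe-2-1-/- and 0.908% ± 0.050 in tRNA-Phe-3-1-/-. In the brain the corresponding shares were 0.803% ± 0.028, 0.821% ± 0.049, 0.821% ± 0.064 and 0.830% ± 0.051.

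Against WT, 10 of the 81 members fell in tRNA-Phe-1-1-/- liver and none rose (adjusted p under 0.05, limma). This count is 12.3% of the tested members, whereas 17.3% of all genes were called in either direction and 9.08% were called lower, so the share called stood close to that of the liver at large. What differed was direction, since 74 members had a negative and 7 a positive log2 fold change, with a median of -0.17 (quartiles -0.23 and -0.11) beside -0.005 over all genes tested (quartiles -0.28 and 0.26). In 40 members all 3 knockout samples lay below all 3 WT samples, beside 17.6% of all genes. Markers of red blood cells moved the same way, with the summed level of the list at 8819 to 10742 normalised counts in the knockout and 15235 to 19345 in WT, and their part in the lower member values was not tested.

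Atp5mc1, a c-subunit gene of the ATP synthase (Atp5g1 in RefSeq, chr11:96072793-96075694 in GRCm38.p6), had the lowest adjusted p. Its normalised counts were 6155, 6484 and 7024 in WT liver and 4776, 5364 and 4798 in tRNA-Phe-1-1-/- liver, so that the groups did not overlap. The log2 fold change was -0.40 (SE 0.073, adjusted p = 0.00403, limma). Values in tRNA-Phe-2-1-/-, 5747, 5745 and 5681, also lay below WT, and those in tRNA-Phe-3-1-/- were 6261, 6258 and 6040. The other c-subunit genes, Atp5mc2 and Atp5mc3, had log2 differences of -0.17 (SE 0.074) and -0.23 (SE 0.081) in tRNA-Phe-1-1-/- and did not pass (adjusted p = 0.138 and 0.0723, limma).

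Atp5me (Atp5k in RefSeq), the e-subunit that helps ATP synthase form dimers, had 2003, 1793 and 2039 normalised counts in tRNA-Phe-1-1-/- liver against 2538, 2336 and 2424 in WT. It had 2840, 2907 and 2775 in tRNA-Phe-2-1-/- and 2544, 2687 and 2908 in tRNA-Phe-3-1-/-, so the tRNA-Phe-1-1-/- samples were the 3 lowest of the 12. The fall against WT was -0.32 on the log2 scale (SE 0.077, adjusted p = 0.0148, limma). Uqcr11, a small subunit of complex III, had 4034, 3702 and 4488 normalised counts against 5348, 5072 and 4975 in WT (log2 fold change -0.34, SE 0.077, adjusted p = 0.0123, limma). Its values in the other 2 lines were 5110 to 5409, near WT.

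Among complex I genes, Ndufb10, an accessory subunit of the membrane arm, had 1927, 1842 and 2183 normalised counts in tRNA-Phe-1-1-/- liver against 2341, 2628 and 2802 in WT (log2 fold change -0.38, SE 0.092, adjusted p = 0.0151, limma). Ndufa5, an accessory subunit of the matrix arm, had 975, 879 and 1114 against 1205, 1291 and 1352 (log2 fold change -0.38, SE 0.098, adjusted p = 0.0219, limma). Both genes were separate from WT in every sample. Sdhd, the small membrane anchor of succinate dehydrogenase, had 4818, 4321 and 5175 against 5874, 6082 and 5900 (log2 fold change -0.32, SE 0.079, adjusted p = 0.0172, limma). The other called members were Ndufb7, Ndufc2 and Ndufv3 of complex I and Atp5mf of complex V, with log2 fold changes of -0.27, -0.29, -0.28 and -0.26.

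**Figure D3:**
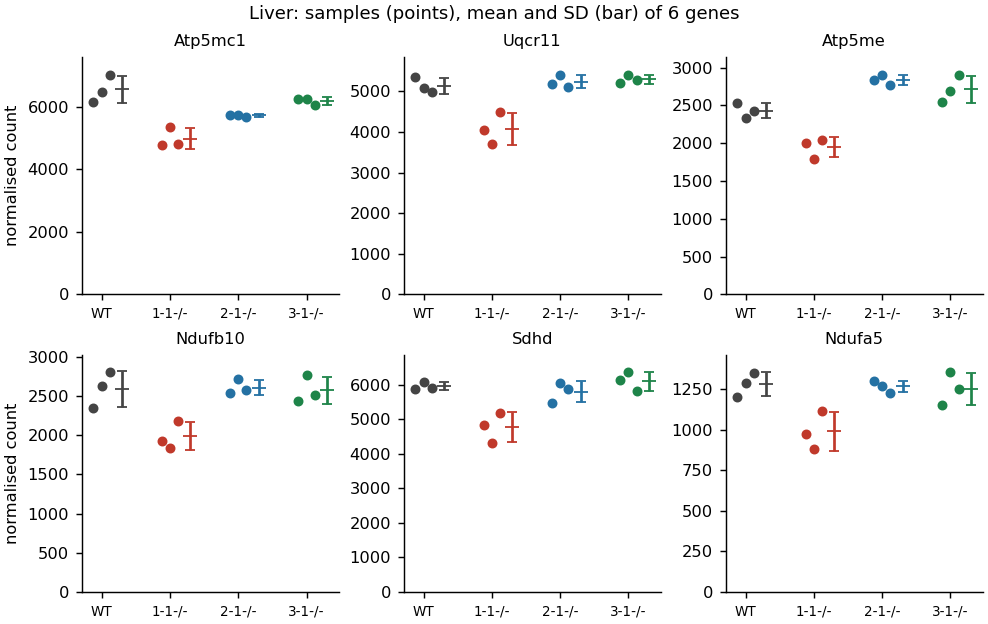
Normalised counts of the 6 members with the lowest adjusted p in tRNA-Phe-1-1-/- against WT liver, by genotype; points are samples A, B and C and the bar beside them is the mean with its SD (n = 3), on axes that start at 0. The tRNA-Phe-1-1-/- samples of Atp5me lie at 1793 to 2039, below the 9 other samples.

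All 5 complexes had a negative median in tRNA-Phe-1-1-/- liver. Complex I had a median of -0.17 over 38 genes with 5 called, complex II -0.26 over 4 with 1 called, complex III -0.14 over 8 with 1 called, complex IV -0.16 over 13 with 0 called, and complex V -0.15 over 18 with 3 called. At an unadjusted p under 0.05 complex IV had 2 members. At least 17.3% of all genes met that unadjusted threshold, since 17.3% passed the adjusted one. The 7 core subunits of complex I, which hold its flavin and iron-sulphur clusters and its quinone site, had log2 differences from -0.21 for Ndufs7 to -0.04 for Ndufs3, a median of -0.18, and none past the threshold (adjusted p = 0.0619 for Ndufs8, the lowest, by limma), while 5 had an unadjusted p under 0.05. Ndufv1 and Ndufv2, of the NADH-binding module, stood at -0.19 and -0.18, and Ndufs1 at -0.16.

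In complex II, the flavoprotein gene Sdha had 14330, 11703 and 14887 normalised counts against 16647, 15791 and 15803 in WT (log2 difference -0.24, SE 0.10, adjusted p = 0.117, limma). Sdhb, the iron-sulphur subunit, had 4674, 4189 and 5340 against 5586, 5544 and 5862 (log2 difference -0.27, SE 0.11, adjusted p = 0.117, limma). Neither passed, although the 2 groups were separate for both. Sdhc, the other anchor subunit, had 3842, 3623 and 4004 against 3789, 3954 and 4257, and the groups overlapped. Members with positive values were Ndufb3 (log2 difference 0.23, SE 0.19), Ndufa4l2 (0.19), Ndufa8 (0.13), Cox7a2l (0.12), Ndufa3 (0.02), Atp5mk (0.02) and Cox7a2 (0.01), none past the threshold. The lowest value was that of Cox7a1, -0.99 with an SE of 0.53, a gene with 24.4, 60.3 and 66.2 normalised counts in WT and 13.2, 47.6 and 18.4 in the knockout. Myh6, a heart muscle marker, averaged 48.7 ± 36.1 normalised counts (SD, n = 3) in WT liver and 0.314, 0 and 0.335 in the 3 knockout lines, and its part in the value of Cox7a1 was not tested. Atp5if1 had 294, 302 and 301 normalised counts against 320, 297 and 306 in WT (log2 difference -0.04, SE 0.13).

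**Figure D4:**
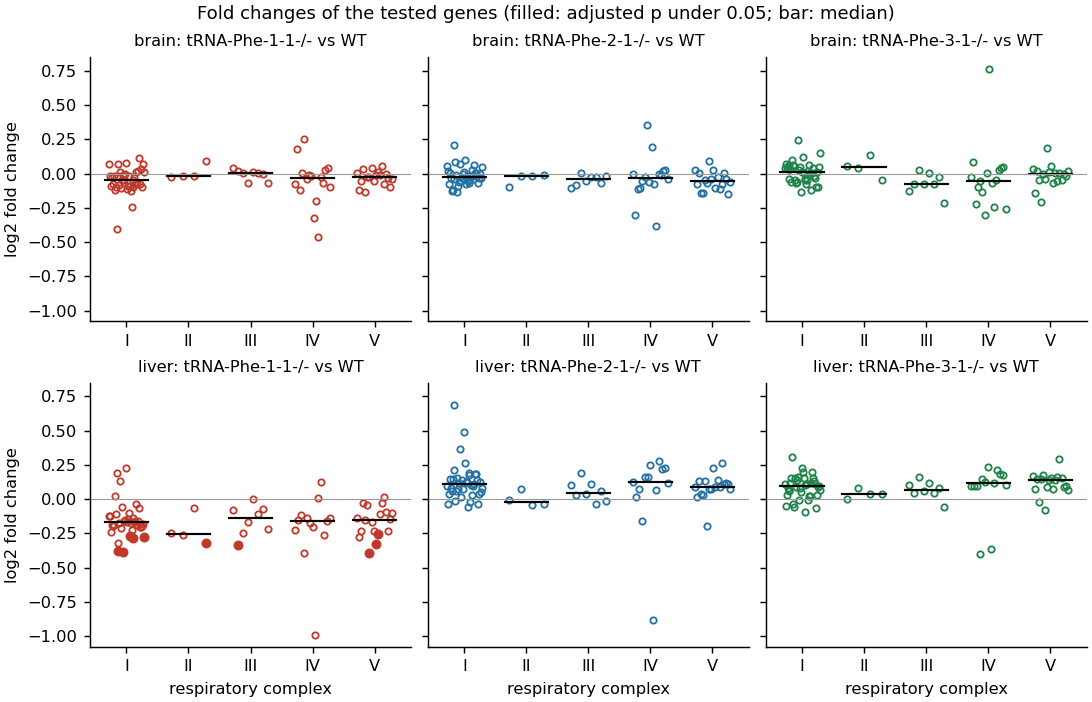
Log2 fold change against WT of each tested member by complex, in brain (upper row, 84 genes) and liver (lower row, 81 genes) for the 3 lines. Filled points passed an adjusted p of 0.05, open points did not, and bars are medians. The 10 filled points all lie below 0 in tRNA-Phe-1-1-/- liver, where the median over all members is -0.17.

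The other 2 lines lay on the opposite side of WT in the liver, without passing the threshold. In tRNA-Phe-2-1-/- liver 68 of 81 members had a positive log2 difference, with a median of 0.09 beside 0.001 over all genes, and 0 were called (0.132% of all genes were) by limma, edgeR or DESeq2, while 11 had an unadjusted p under 0.05 (14.9% of all genes). In 31 members all 3 samples lay above all WT samples, beside 13.1% of all genes. In tRNA-Phe-3-1-/- liver 68 of 81 were again positive, with a median of 0.10 beside 0.009 over all genes, and limma and edgeR called 0 and DESeq2 1 (0.883% of all genes were called by limma), while 3 had an unadjusted p under 0.05 (16.1% of all genes). There, 20 members lay wholly above WT, beside 9.85% of all genes. The share of all genes called by DESeq2 was not set beside its count of 1. The 2 comparisons share their WT samples, so the likeness of their medians is not independent.

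Atp5mk, a small subunit found in ATP synthase dimers, had the lowest unadjusted p in both, with 2199, 2262 and 2016 normalised counts in tRNA-Phe-2-1-/- liver, 1977, 2268 and 2389 in tRNA-Phe-3-1-/- and 1925, 1731 and 1741 in WT. The log2 differences were 0.26 (SE 0.088, adjusted p = 0.219, limma) and 0.29 (SE 0.088, adjusted p = 0.134, limma). In the tRNA-Phe-1-1-/- line Atp5mk did not share the downward values, with 1850, 1736 and 1878 normalised counts. Next came Ndufb1, a complex I accessory subunit, in tRNA-Phe-2-1-/- (1663, 1796 and 1587 against 1396, 1354 and 1175, log2 difference 0.36, SE 0.12, adjusted p = 0.225, limma), and Ndufs3, of the complex I core, in tRNA-Phe-3-1-/- (2805, 3284 and 3225 against 2774, 2688 and 2650, log2 difference 0.20, SE 0.079, adjusted p = 0.251, limma).

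The comparison of lines with each other, which needs no WT sample, gave the largest counts. In tRNA-Phe-1-1-/- liver against tRNA-Phe-2-1-/- liver 38 of 81 members (46.9%) were called, all lower, where 15.9% of all genes were called and 8.53% were called lower (limma). The median was -0.25, or 16.2% less, beside 0 to 2 decimals over all genes, and 60 members lay wholly below, beside 19.6% of all genes. Against tRNA-Phe-3-1-/-, 36 members (44.4%) were called, all lower, where 16.1% of all genes were called and 8.63% were called lower, with a median of -0.26 and 60 members wholly below, beside 16.3% of all genes. These comparisons share the tRNA-Phe-1-1-/- samples, and Dbp and Bmal1 did not overlap between the groups of the former. By complex, 20 of 38 genes of complex I, 1 of 4 of complex II, 2 of 8 of complex III, 7 of 13 of complex IV and 8 of 18 of complex V were called in the former, and 16, 1, 2, 6 and 11 in the latter.

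Atp5me led both, at -0.55 (SE 0.077, adjusted p = 0.00109, limma) against tRNA-Phe-2-1-/- and -0.48 (SE 0.077, adjusted p = 0.0024) against tRNA-Phe-3-1-/-. Atp5mf, the f-subunit beside it in the membrane part of the synthase, had 3069, 3093 and 3223 normalised counts in tRNA-Phe-1-1-/- and 3856, 4243 and 3844 in tRNA-Phe-2-1-/- (log2 fold change -0.35, SE 0.068, adjusted p = 0.00666, limma). Uqcr11 was second against tRNA-Phe-3-1-/-, at -0.38 (SE 0.077, adjusted p = 0.00749, limma). All 3 genes were separate in every sample. Of the isoform genes, Cox4i1 fell by 0.35 and 0.32 on the log2 scale (adjusted p = 0.00865 and 0.0141, limma), Ndufa4 by 0.32 and 0.27 (0.0126 and 0.0299) and Cox6a1 by 0.30 and 0.28 (0.0205 and 0.0255) against the 2 lines in that order. Ndufv1, Ndufv2 and Ndufs8 of the complex I core passed in both comparisons, and Ndufs1, Ndufs3 and Ndufs7 in neither.

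The counts depend on single libraries. The share of all genes called was not set beside the counts of these runs, so they describe the members alone. Leaving out 1 sample at a time gave 3 to 16 called members against WT (3 without WT B, 4 without WT C or tRNA-Phe-1-1-/- A, 6 without WT A or tRNA-Phe-1-1-/- B, 16 without tRNA-Phe-1-1-/- C), 6 to 44 against tRNA-Phe-2-1-/- (6 without tRNA-Phe-2-1-/- B, 18 without tRNA-Phe-1-1-/- A or B, 20 and 22 without tRNA-Phe-2-1-/- C and A) and 12 to 44 against tRNA-Phe-3-1-/- (12 and 13 without tRNA-Phe-1-1-/- A and B, 14 and 15 without tRNA-Phe-3-1-/- C and B), whereas the medians stayed between -0.31 and -0.12. Without tRNA-Phe-3-1-/- A, whose Dbp level of 170 was the lowest of its line, 39 members were called against the other 2 tRNA-Phe-3-1-/- livers, where Dbp stood at 2173 and 1343. Bmal1 in these 2 stood at 290 and 433. In the tRNA-Phe-1-1-/- livers A, B and C Bmal1 stood at 98.8, 466 and 101 and Dbp at 2776, 853 and 3069. This run was singled out after the clock values had been seen, and the part of clock phase in its count was not tested. Between the tRNA-Phe-2-1-/- livers and those of the tRNA-Phe-3-1-/- line no difference was detected, with 0 members called (0% of all genes), 0 at an unadjusted p under 0.05 (6.68% of all genes), 0 by edgeR or DESeq2, and a median of 0.01. The F-test over the 4 liver genotypes called 25 members, or 30.9%, where 17% of all genes passed.

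To test whether the response to the loss of tRNA-Phe-1-1 differed between tissues, the difference of the 2 log2 fold changes was fitted over all 24 samples. In 73 of the 81 members tested in both tissues the value was higher in brain than in liver, with a median difference of 0.12 (-0.004 over all genes), and 3 passed (6.94% of all genes did, limma). Ndufa5 differed by 0.45 (SE 0.12, adjusted p = 0.0328, limma), with log2 fold changes of 0.07 in brain and -0.38 in liver. Sdhd, with 1860, 2048 and 2133 normalised counts in tRNA-Phe-1-1-/- brain against 2014, 1781 and 1858 in WT brain, differed by 0.42 (SE 0.11, adjusted p = 0.0286, limma), and Uqcr11 by 0.36 (SE 0.11, adjusted p = 0.0458, limma). Removal of single samples left 0 to 4 called members, and 0 were left without WT brain C, tRNA-Phe-1-1-/- brain B or C, WT liver B or C, or tRNA-Phe-1-1-/- liver A. Whether brain and liver samples of a letter came from the same mouse is not stated, and with such samples taken as 1 animal 0 members passed, the adjusted p being 0.109 for Ndufa5, 0.133 for Sdhd and 0.158 for Uqcr11 (limma). For tRNA-Phe-2-1-/-, as for tRNA-Phe-3-1-/-, no member passed by limma (0.0346% and 0.45% of all genes did), with 8 and 7 at an unadjusted p under 0.05 and medians of -0.13 and -0.12. The share of all genes at the unadjusted threshold was not set beside these counts, so they describe the members alone.

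**Figure D5:**
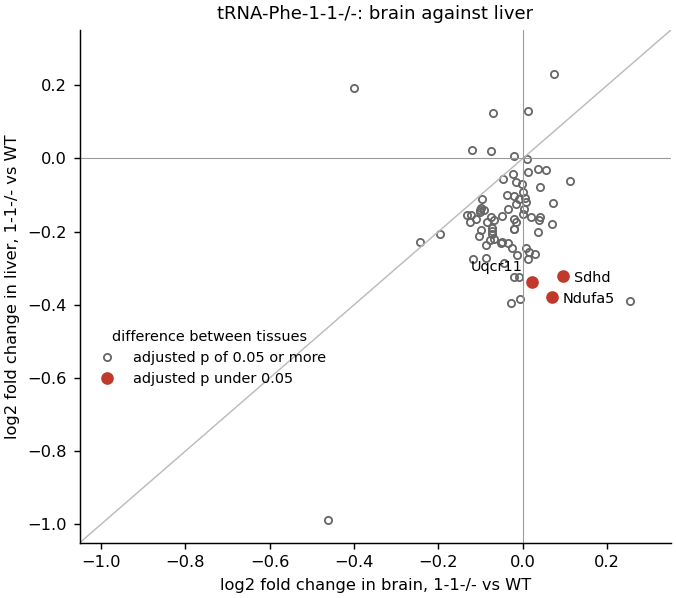
Log2 fold change of tRNA-Phe-1-1-/- against WT in brain (horizontal axis) and liver (vertical axis) for the 81 members tested in both tissues, with the diagonal of equal change. Most points lie below the diagonal, and the 3 filled points, Sdhd, Ndufa5 and Uqcr11, are those whose difference between tissues passed an adjusted p of 0.05.

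The partners of these subunits were read from lists of other genes of the pathway. In tRNA-Phe-1-1-/- liver, where 17.3% of all genes were called, 1 of the 11 entries encoded by mitochondrial DNA was called, mt-Nd3, which rose from 23484 to 32828 normalised counts (log2 fold change 0.48, SE 0.13, adjusted p = 0.0280, limma), and the median of the list was -0.17. Of 17 complex I assembly factors, Ndufaf4, Ndufaf6 and Foxred1 rose (log2 fold changes 0.43, 0.56 and 0.37) and Acad9 fell by 0.67 on the log2 scale. Of 22 tested complex IV assembly factors, Sco2, a copper chaperone, fell by 1.11, Coa3 by 0.37 and Cox20 by 0.36. In the smaller lists Lyrm7 of complex III fell by 1.22, whereas Sdhaf2 of complex II and Tmem70 of complex V rose by 0.33 and 0.35.

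Of 13 genes of the TCA cycle, which supplies NADH and succinate to the chain, Cs, Dlst and Suclg1 fell (log2 fold changes -0.57, -0.40 and -0.30) and Fh1 and Idh3a rose (0.95 and 0.58). These are calls in tRNA-Phe-1-1-/- against WT liver, where 17.3% of all genes were called. None of 12 regulators of mitochondrial biogenesis passed in tRNA-Phe-1-1-/- liver (limma), with 2 at an unadjusted p under 0.05. At least 17.3% of all genes met that unadjusted threshold there, since 17.3% passed the adjusted one. Ppargc1a, a coactivator of mitochondrial genes, had a mean of 240.1 normalised counts against 365 in WT (log2 difference -0.76, SE 0.36, adjusted p = 0.177, limma), and Nrf1 had 677 against 610.1 (log2 difference 0.15, SE 0.11, adjusted p = 0.365, limma). Among the 7 other subunits and carriers 0 passed, with 3 at an unadjusted p under 0.05 and a median of -0.18. In the brain none of these lists held a called gene in any line, and in the liver of the other 2 lines 1 entry was called, mt-Nd4l_4, which fell by 0.96 on the log2 scale in tRNA-Phe-3-1-/-.

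Because the deleted genes decode phenylalanine, its codons were counted in the reading frames of 88 members (GENCODE vM39). Phenylalanine took a median of 3.8% of the codons of a member, from 0.775% in Cox5b to 9.52% in Cox7c, and 3.74% over 21350 genes with a complete frame (quartiles 2.74% and 5.06%). The UUU codon made up 49.0% of phenylalanine codons in members and 45.3% in all genes. Among the 10 members that fell in tRNA-Phe-1-1-/- liver the percentage ran from 0.862% in Ndufa5 to 6.67% in Ndufc2, and Atp5mc1 had 5.88%. Across the 81 tested members, Spearman's rho between the percentage of phenylalanine codons and the log2 difference in tRNA-Phe-1-1-/- liver was 0.25 and Pearson's r 0.23, and rho with transcript length was 0.15. Genes are not independent replicates, all points share the same libraries, and no test was made of either value.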

How the data were processed

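RNA from 24 samples was sequenced by the authors. Per the labels and the study's methods, the authors trimmed reads (Trim Galore, cutadapt), aligned them with STAR to GRCm38.p6 and quantified genes with Salmon (GENCODE vM24 and their own mitochondrial annotation). The values deposited by the authors are a signal, counts divided by one DESeq2 size factor per sample, for 55469 genes. All values were whole multiples of one step per column (tolerance 0.01), which gave 100% whole reads and the depth. Their tables of comparisons hold mean signal, log2 fold changes with errors and s-values, and were not used. Salmon divides reads among similar genes, and size factors assume that most genes are unchanged.

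Symbols and gene types came from GENCODE vM39 (51679 of 55434 Ensembl identifiers matched), positions from RefSeq for GRCm38.p6. Groups came from the sample titles. log2(normalised count + 1) was fitted with limma 3.58.1 (R 4.3.3), per tissue over 12 samples, for genes with a mean of at least 10 (19228 in brain, 15856 in liver), with a variance trend, two-sided tests and Benjamini-Hochberg adjustment over all genes tested (threshold 0.05). Fold changes on this scale understate those of low genes. The tissue difference was one interaction fit. With 3 against 3 samples an exact permutation test cannot go below 0.1. Members, lists and tests were chosen with earlier results of these data known; Dbp and Bmal1 were looked up after the values had been seen. Genes were named by rule: per line and tissue against WT the 6 lowest adjusted p per direction (otherwise the 2 lowest unadjusted p), 2 per direction between lines, 4 for the tissue difference, and isoform pairs, Sdh genes, Atp5if1 and the complex I core, of which 1 gene is not reported here by name. Members with positive values, list genes that passed and single low values were named after their values were seen. The method was tested on simulated counts of tRNA-Phe-1-1-/- against WT liver. There limma called 0% of 67 genes changed 1.2-fold, 8.96% of 67 changed 1.5-fold and 50% of 66 changed 2-fold, so small changes can be missed. Only these genes of 15856 were changed there, whereas 17.3% of all genes were called in the real comparison. The adjusted threshold was therefore stricter in the simulation, and its rates are not those of the real comparison. Alternatives were pseudocounts of 0.1 and 5, the low-value filter removed or raised to 50, quantile normalisation, trimmed-mean rescaling, a constant prior variance, a block for the sample letter, edgeR 4.0.16 and DESeq2 1.42.0 on recovered reads, and leaving out each sample. Per the study's methods the RNA of a group came from separate mice; the labels give only a letter for each sample.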

Additional observations from a re-analysis of the deposited data

Results flagged for a closer look

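In 3 of 81 members the response to the loss of tRNA-Phe-1-1 differed between tissues by the interaction test (limma, adjusted over 14456 genes). This is a smaller share than the 6.94% of all genes that passed. None of the 3 kept its call with brain and liver samples of a letter taken as 1 animal (adjusted p = 0.109 for Ndufa5, 0.133 for Sdhd and 0.158 for Uqcr11, limma). The log2 fold change against WT was higher in brain than in liver by 0.45 for Ndufa5, by 0.42 for Sdhd and by 0.36 for Uqcr11. In each the brain values of knockout and WT overlapped and the liver values did not. The clock genes Dbp and Bmal1 also differed between WT and tRNA-Phe-1-1-/- in the liver, and their part in these differences was not tested.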

How the results depend on the processing

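The median log2 fold change of the members moved by less than the spread between replicates under every alternative, and in tRNA-Phe-1-1-/- liver against WT it lay between -0.21 and -0.12 when single samples were left out. Counts of called members moved more, and the causes were not tested beyond the fewer samples. The share of all genes called under each setting was not set beside these counts, so a higher count need not be particular to the members. Without the low-value filter 24 members were called in tRNA-Phe-1-1-/- against tRNA-Phe-2-1-/- liver, 19 against tRNA-Phe-3-1-/-, 15 by the F-test in liver and 1 for the tissue difference of tRNA-Phe-1-1-/-. With a constant prior variance these were 21, 19 and 4 for the first 3, and quantile normalisation left 1 for the tissue difference. DESeq2 called 20 in tRNA-Phe-1-1-/- against WT liver, 1 in tRNA-Phe-3-1-/- against WT liver, 42 by the test over genotypes in liver, and 1 in tRNA-Phe-1-1-/- against tRNA-Phe-3-1-/- brain. Without single samples the counts were 3 to 16 against WT, 6 to 44 against tRNA-Phe-2-1-/-, 12 to 44 against tRNA-Phe-3-1-/-, 1 to 28 by the F-test and 0 to 4 for the tissue difference. Ndufs3, at -0.04, turned to 0.00302 under quantile normalisation. Without single samples Ndufs3 ranged from -0.0754 to 0.00746, Cox7a2 from -0.0623 to 0.0693 and Ndufa4l2 from -0.34 to 0.56. Atp5mc1, Atp5me and Uqcr11 kept their calls against WT in liver under all these alternatives and without any single sample.

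Within a tissue, sample letters were not taken to pair the samples. The median correlation of deviations between samples with the same letter was 0.034 in brain and -0.025 in liver. In the brain 7 of 18 same-letter pairs exceeded 0.1, up to 0.49, beside 9 of 36 pairs with different letters. In the liver these were 3 of 18 and 10 of 36. Whether the letters pair the brain samples is not settled by these values. With the replicate block 9 members were called in tRNA-Phe-1-1-/- against WT liver, 10 by the F-test in liver and 1 for the tissue difference. The share of all genes called with the block was not set beside these counts, so lower counts need not be particular to the members. Between tissues, the deviations of the brain and liver samples of the same genotype and letter correlated at a median of 0.033, and 0 of 12 such pairs exceeded 0.1. A replicate block across tissues, chosen after seeing the data, left 0 members for the tissue difference of tRNA-Phe-1-1-/-. With 3 samples a group, small differences such as those in the brain could have been missed.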
